A study of Mus musculus with 35 samples.

Results

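The 40 genes described here encode regulators of chromatin that act on Hox genes or are linked to NUP98 fusion proteins, and were taken as the rows of the count table whose gene name is one of a fixed list, 40 of 49671 rows. They fall into 9 families. These are 6 H3K4 methyltransferases, 4 subunits that the methyltransferase complexes share, menin with LEDGF, 5 acetyltransferases, 6 genes of DOT1L and its elongation partners, 5 PRC2 genes, 8 PRC1 genes, 2 H3K27 demethylases and 2 deacetylases. All 40 passed the filter on low counts.

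RNA was sequenced from mouse lineage-negative bone marrow cells (lin- HSPCs, hematopoietic stem and progenitor cells of C57Bl/6 mice) that carried a lentiviral construct, were sorted for its fluorescence and had grown in methylcellulose with myeloid and erythroid growth factors and 10 ng/mL GM-CSF. The 7 conditions had 5 libraries each. The empty vector expressed a fluorescent protein without a fusion. G-NHA9 was the mEGFP-tagged fusion of NUP98 with the homeodomain protein HOXA9, written NHX9 in the labels, and the 5 other constructs were derived from it. In G-NHA9-8FA phenylalanines of the NUP98 repeats were changed to alanine, and in G-NHA9-21FGAA phenylalanine-glycine (FG) motifs were changed to alanine pairs. G-NHA9Midi kept only the C-terminal portion of the NUP98 segment, and G-NHA9Midi-21FGAA had the same motif changes in that short form. G-NHA9-DDNA carried a homeodomain mutated to weaken DNA binding. The labels gave the mice as 8 weeks old except for empty vector replicate 4 (9 weeks), empty vector replicate 5 (10 weeks) and G-NHA9 replicate 1 (11 weeks). Male and female mice were used, so each library may hold cells of both sexes. The same lin- cells and culture were common to every condition, and the introduced construct was driven by the vector, so that no condition measures a fusion made from the Nup98 locus.

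MLL-type methyltransferases write H3K4 methylation as parts of complexes with the shared subunits WDR5, ASH2L, RBBP5 and DPY30, and menin and LEDGF tether MLL to its target genes. DOT1L methylates H3K79 and acts with elongation factors, several of which are partners in leukemic MLL fusions. PRC2 deposits H3K27 methylation and PRC1 binds that mark through CBX proteins, ubiquitinates histone H2A and keeps Hox genes silent, while KDM6A and KDM6B remove the mark. In hematopoiesis these opposing systems set Hox expression in stem and progenitor cells and its decline as the cells mature.

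Library totals ran from 31559914 to 75810659 counts, a depth at which 3 counts corresponded to at most 0.0995 CPM (counts for each 1000000 of the library total, scaled for composition), below every value of every member. Hoxa9 counts, in which reads of the endogenous gene and of the fusion cannot be told apart, averaged 0.975 CPM in the empty vector, 96.6 CPM in G-NHA9, 33.8 CPM in G-NHA9-8FA, 34.6 CPM in G-NHA9Midi, 3.28 CPM in G-NHA9-21FGAA, 1.12 CPM in G-NHA9Midi-21FGAA and 18.9 CPM in G-NHA9-DDNA. The value of G-NHA9Midi-21FGAA was near that of the empty vector, so these counts do not check its label. Cell type markers moved between conditions. The summed level of 10 erythroid markers was 239 to 698 CPM in the empty vector, 28.4 to 79.5 CPM in G-NHA9-8FA and 44.5 to 84.0 CPM in G-NHA9Midi, against 370 to 1787 CPM in G-NHA9-21FGAA and 492 to 1567 CPM in G-NHA9Midi-21FGAA. That of 7 mast cell and basophil markers was 959 to 2866 CPM in the empty vector, 444 to 778 CPM in G-NHA9 and 2210 to 4945 CPM in G-NHA9Midi-21FGAA. No defining marker of either list was at 0 in every library of a condition. The part of these shifts in the results below was not tested, and in bulk RNA fewer cells of a type and less RNA per cell cannot be told apart.

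Libraries numbered 4 and 5 stood apart from those numbered 1 to 3 of the same condition. In the first component of the deviations from the condition means, which held 22.0% of their variance, replicates 4 and 5 lay on the same side in every condition with the exception of G-NHA9Midi replicate 4, and replicate 1 lay on the other side in all 7 conditions. What the numbers stand for was not given in the sources used here. The members differed in how far they followed this division.

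The genes for the large enzymes followed it most. Kmt2d, which encodes an H3K4 methyltransferase of enhancers, was at 43.4, 67.5, 57.8, 248 and 241 CPM in empty vector replicates 1 to 5. Replicates 4 and 5 were thus far above the other 3. In G-NHA9 Kmt2d was at 70.4, 42.8, 34.4, 156 and 269 CPM, in G-NHA9-8FA at 41.6, 49.2, 47.5, 93.1 and 162 CPM and in G-NHA9Midi at 37.0, 47.4, 46.4, 39.8 and 161 CPM. It was at 101, 55.5, 73.8, 86.0 and 189 CPM in G-NHA9-21FGAA, at 66.2, 65.7, 38.9, 134 and 141 CPM in G-NHA9Midi-21FGAA and at 96.1, 45.0, 53.3, 212 and 220 CPM in G-NHA9-DDNA. In every condition replicate 5 was above replicates 1 to 3, and in G-NHA9Midi replicate 5 alone was high. Setd1b, another H3K4 methyltransferase, repeated the pattern at a lower level, with 5.85, 11.0, 8.45, 38.1 and 44.8 CPM in the empty vector and 6.04, 8.10, 7.34, 7.22 and 20.0 CPM in G-NHA9Midi. Dot1l, the H3K79 methyltransferase, stood at 19.1, 21.8, 20.3, 57.4 and 70.1 CPM in the empty vector and 15.2, 16.6, 16.1, 15.7 and 35 CPM in G-NHA9Midi. Kdm6b, an H3K27 demethylase, stood at 10.4, 16, 12, 57.3 and 58.4 CPM in the empty vector and 10.0, 11.3, 9.53, 10.9 and 34.1 CPM in G-NHA9Midi. These 4 genes were chosen for their spread after their values were seen.

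**Figure D1:**
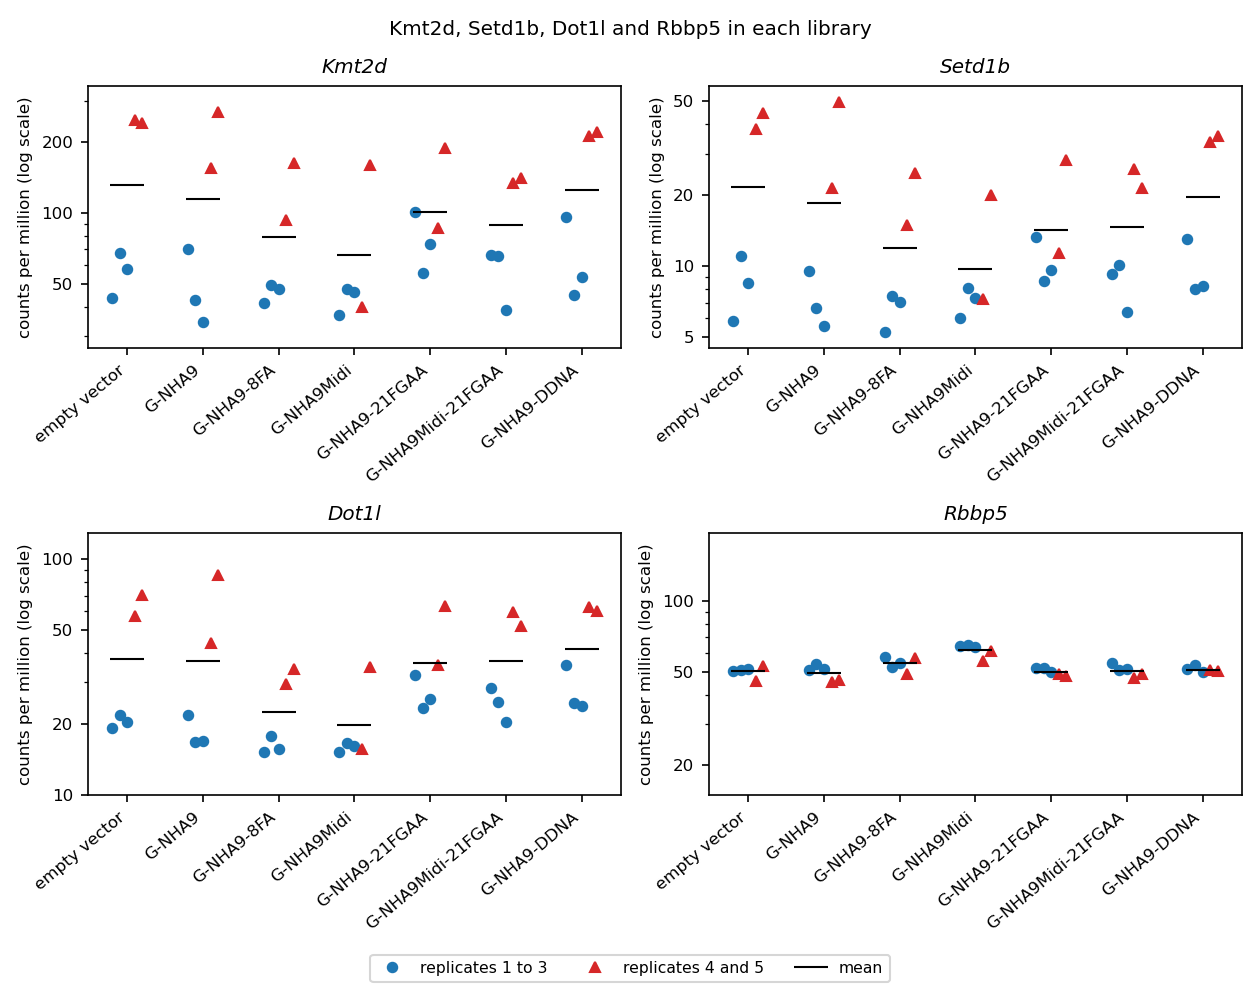
CPM (log scale, the same fold range in each panel) of Kmt2d, Setd1b, Dot1l and Rbbp5 in the 35 libraries of the 7 conditions, with circles for replicates 1 to 3, triangles for replicates 4 and 5 and a bar for the mean of 5. In the empty vector Kmt2d lies between 43.4 and 67.5 in replicates 1 to 3 and at 248 and 241 in replicates 4 and 5, while Rbbp5 has a within-condition SD of 0.08 on the log2 scale.

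The within-condition standard deviation of log2 CPM was 1.00 for Setd1b and 0.97 for Kmt2d, both within the highest 1% of the 17166 genes tested, and 0.96 for Kdm6b, just outside it. Dot1l (0.72), Kmt2a (0.66), Crebbp (0.63), Ep300 (0.61), Kmt2b (0.60), Phc1 (0.56) and Setd1a (0.56) followed. At the other end were the shared subunits Rbbp5 (0.08), Ash2l (0.13) and Wdr5 (0.14) and the PRC2 methyltransferase gene Ezh1 (0.12). The median over the 40 members was 0.21 and over all genes tested 0.29, and 24 members were below the median of all genes. The wide spread was therefore a property of a minority of the members, led by the large enzymes.

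Across the 40 members the spread rose with the length of the longest annotated transcript (Spearman's rho 0.63) and with its GC content (rho 0.47), described over 40 genes that share the same 35 libraries. Over all genes tested the corresponding values were -0.21 and -0.03. The 11 members with a transcript of at least 6000 bases and at least 50% GC, limits chosen after the values were seen, had a median spread of 0.63, against 0.18 for the other 29. The 635 genes of the whole table within those limits had a median of 0.36. Aff4, with a transcript of 10099 bases at 44.5% GC, had a spread of only 0.15, and Mllt3, at 41.4% GC, one of 0.21.

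**Figure D2:**
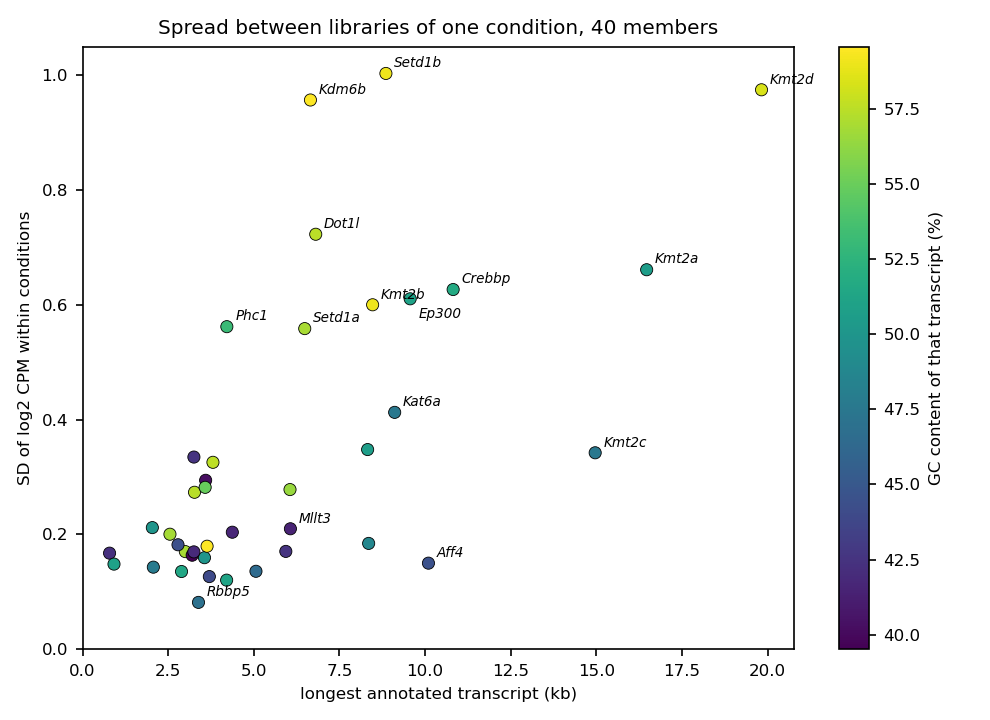
Standard deviation of log2 CPM within conditions (vertical axis) against the length of the longest annotated transcript in kilobases (horizontal axis) for the 40 members, each a point coloured by the GC content of that transcript. Setd1b, Kmt2d and Kdm6b lie near 1 and Rbbp5 at 0.08, and the long but less GC-rich Aff4 lies at 0.15.

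Xist, the RNA of the inactive X chromosome, was higher in replicates 4 and 5 of the empty vector (815 and 886 CPM) than in replicates 1 to 3 (364, 551 and 413 CPM), and the Y-linked Ddx3y was lower there (9.26 and 8.63 CPM against 26.0, 16 and 15.7 CPM). Kdm6a, the X-linked H3K27 demethylase, did not follow: its condition means ran from 77.1 to 87.3 CPM, its spread was 0.17 and it passed the test in none of the 6 comparisons with the empty vector. In 2 conditions the libraries did not divide the same way: Xist was lowest in replicate 4 in G-NHA9Midi (272 CPM, against 380 to 434 CPM in replicates 1 to 3), and in G-NHA9-21FGAA replicate 1 (860 CPM) was above replicate 4 (490 CPM). In the other 4 conditions replicates 4 and 5 were the highest. The part of the sex balance in the split between libraries was not tested.

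Exon sequence of 11 members, Kmt2a, Kmt2c, Setd1a, Psip1, Mllt10, Ezh2, Eed, Suz12, Rnf2, Cbx7 and Kdm6b, is shared with a gene on the other strand, and that of 2, Setd1a and Ep300, with a gene on the same strand. The library kit marked strand, but the strand setting of the counting was not given in the sources used here, so the values of these 12 genes may hold or lack reads at the shared sequence. Cbx7, for example, meets Apobec3 and Rnf2 meets Trmt1l.

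Levels between genes were compared as mean CPM per kilobase of merged exon in the empty vector. Wdr5 (19.0), Suz12 (18.9), Dpy30 (17.2), Kat7 (16) and Hdac1 (15.3) were the highest of the 40, and Phc1 (0.906), Cbx2 (0.934), Cbx7 (1.17), Setd1a (1.4) and Setd1b (1.79) the lowest. The shared subunits Wdr5 and Dpy30 were thus among the most abundant transcripts and 3 PRC1 genes among the least. Neighbours in this order, such as Phc1 and Cbx2 or Wdr5 and Suz12, did not differ beyond the spread of the libraries.

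Against the empty vector, each construct was tested with edgeR's quasi-likelihood test over all 17166 genes with Benjamini-Hochberg adjustment at 0.05. In G-NHA9 11 members rose and 1 fell, where 16.9% of all genes were called higher and 15.2% lower. In G-NHA9-8FA 5 rose and 1 fell (all genes 13.4% higher, 13.2% lower), and in G-NHA9Midi 10 rose and 1 fell (all genes 20.5% and 20.0%). In G-NHA9-21FGAA 7 rose and 2 fell (all genes 14.7% and 12.5%), in G-NHA9Midi-21FGAA 3 rose and 2 fell (all genes 9.59% and 7.32%), and in G-NHA9-DDNA 6 rose and 2 fell (all genes 9.85% and 7.35%). The share of members called higher was 27.5% in G-NHA9, 12.5% in G-NHA9-8FA, 25.0% in G-NHA9Midi, 17.5% in G-NHA9-21FGAA, 7.5% in G-NHA9Midi-21FGAA and 15.0% in G-NHA9-DDNA, and that called lower between 2.50% and 5%. The share called higher was above that of all genes by the most in G-NHA9 and was near it or below it in G-NHA9-8FA, G-NHA9-21FGAA and G-NHA9Midi-21FGAA. In this fit the share called lower was below that of all genes in each of the 6. The median log2 change of the 40 members ran from -0.01 to 0.06 over the 6 comparisons, against -0.02 to 0.03 for all genes tested. These comparisons share the empty vector libraries. With the replicate number as a block, 14 members rose and 11 fell in G-NHA9Midi, where 4266 and 4084 of the 17166 genes did. The low number of falls in G-NHA9Midi thus did not hold in that fit.

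Some of these counts moved with single libraries. In G-NHA9Midi the 11 became 6 without G-NHA9Midi replicate 2, empty vector replicate 4 or empty vector replicate 5, and 7 without G-NHA9Midi replicate 3 (all genes 20.5% and 20.0% in the fit with all libraries). In G-NHA9Midi-21FGAA the 5 became 1 without its replicate 3 or empty vector replicate 2 or 4, 2 without its replicate 5 or empty vector replicate 3, and 3 without empty vector replicate 5. In G-NHA9-DDNA the 8 became 5 without its replicate 1 or empty vector replicate 1, 3 without its replicate 2 or 3, and 4 without empty vector replicate 2, 3 or 4. The counts of the other 3 constructs stayed within 1.5 times the value given. Shares of all genes in the left-out fits are not given, so moves of the members and of all genes cannot be told apart here.

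Of the 40 members 13 rose in at least 1 of these comparisons and fell in none, 3 fell in at least 1 and rose in none, Pcgf1 and Rnf2 did both, and 22 were called in none. Wdr5 was called in all 6. Where the members were compared without scaling for composition, the median of all genes shifted upward, by 0.19 in G-NHA9, 0.14 in G-NHA9Midi, 0.16 in G-NHA9-21FGAA, 0.12 in G-NHA9Midi-21FGAA and 0.12 in G-NHA9-DDNA (log2). The split of called members was then 16 higher and 0 lower in G-NHA9 (all genes 29.2% and 9.53%), 7 and 1 in G-NHA9-8FA (16.4% and 11.6%) and 16 and 0 in G-NHA9Midi (29.6% and 16.2%). It was 16 and 0 in G-NHA9-21FGAA (26.5% and 5.77%), 8 and 0 in G-NHA9Midi-21FGAA (19.1% and 3.89%) and 9 and 0 in G-NHA9-DDNA (17.0% and 3.61%), so that all genes also split toward higher. With RLE size factors, the method of DESeq2, in place of TMM it was 3 and 1 in G-NHA9Midi-21FGAA (all genes 9.76% and 7.17%). The falls of small size described below, those of Aff4, Ezh1, Pcgf1 and Rnf2, are relative to the median gene.

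**Figure D3:**
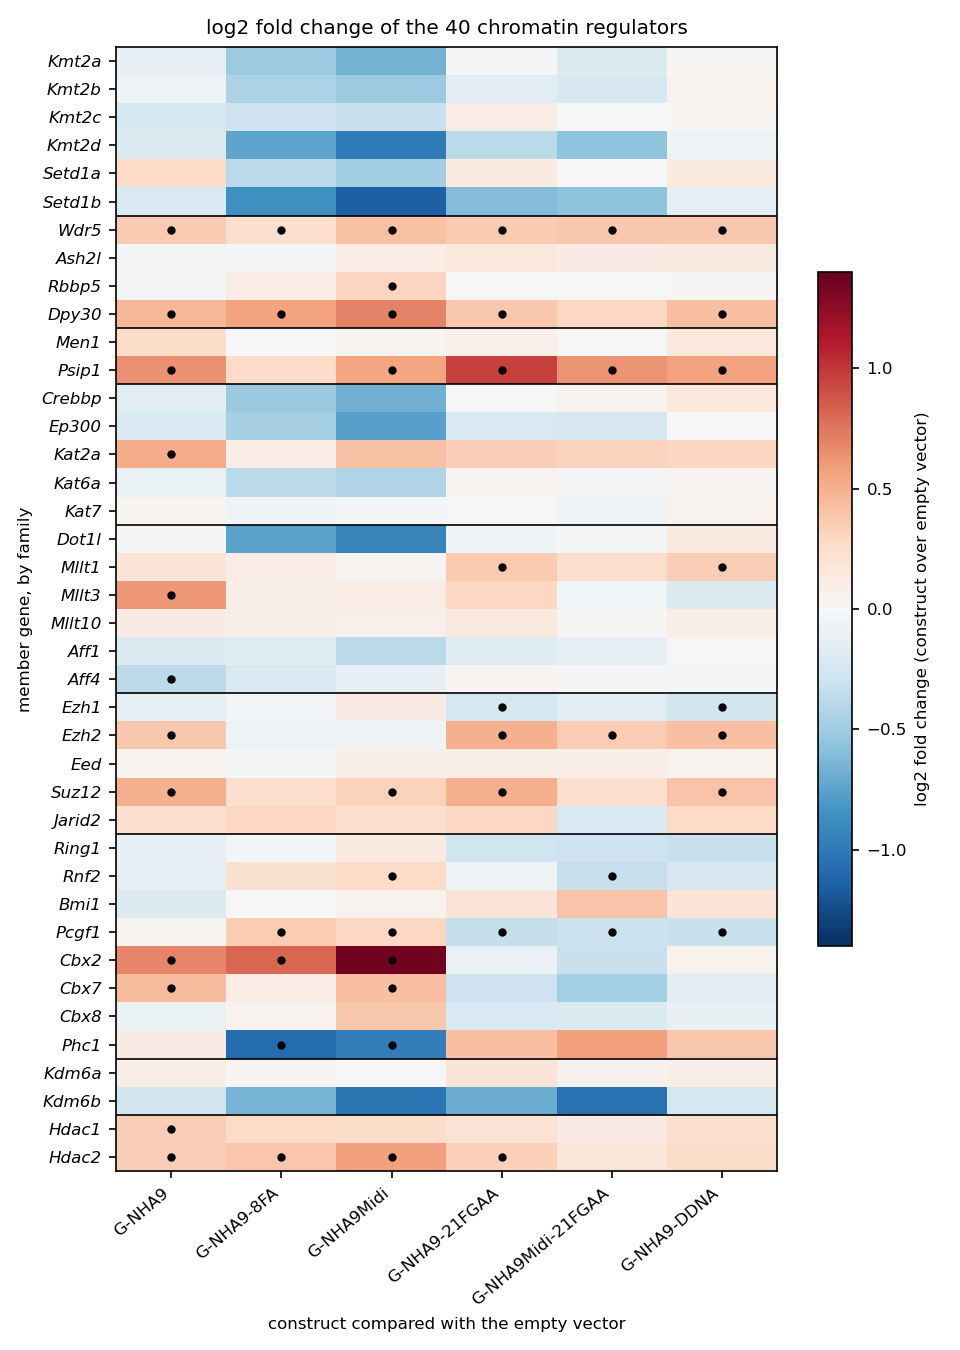
Log2 fold change (colour) of the 40 members, by family, for the 6 constructs relative to the empty vector, with a black dot where the member passed the test at an adjusted p of 0.05. Wdr5 has a dot in all 6 columns, Cbx2 is highest in G-NHA9Midi at 1.35, and the strong blues of Setd1b, Kmt2d and Kdm6b carry no dot.

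Promoter sequence is shown for 4 members whose level changed, as the 250 bases before the RefSeq start of each gene (GRCm38.p6, 5′ to 3′ on the gene's strand), windows that hold no annotated exon. Wdr5 is shown as the member called in every comparison with the empty vector, Suz12 as a PRC2 core gene that rose in 4 of them, Ezh1 as the PRC2 gene that fell, and Rnf2 as the PRC1 gene that moved in both directions. They lie at chr2:27514897-27515146 (Wdr5, plus strand), chr11:79992856-79993105 (Suz12, plus), chr11:101226464-101226713 (Ezh1, minus) and chr1:151500992-151501241 (Rnf2, minus). Capitals mark TGACAG, the core bound by the HOXA9 partner MEIS1, searched on both strands (as CTGTCA on the other strand).
Wdr5: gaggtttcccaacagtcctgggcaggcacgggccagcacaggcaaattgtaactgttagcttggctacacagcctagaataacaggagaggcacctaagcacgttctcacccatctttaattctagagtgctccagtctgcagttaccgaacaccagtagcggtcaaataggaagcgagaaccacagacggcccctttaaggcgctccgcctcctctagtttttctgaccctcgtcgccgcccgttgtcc
Suz12: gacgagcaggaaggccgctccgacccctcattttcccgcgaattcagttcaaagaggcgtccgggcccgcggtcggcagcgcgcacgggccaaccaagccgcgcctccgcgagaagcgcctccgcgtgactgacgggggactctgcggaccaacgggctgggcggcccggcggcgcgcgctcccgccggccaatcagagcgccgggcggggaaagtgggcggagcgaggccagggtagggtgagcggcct
Ezh1: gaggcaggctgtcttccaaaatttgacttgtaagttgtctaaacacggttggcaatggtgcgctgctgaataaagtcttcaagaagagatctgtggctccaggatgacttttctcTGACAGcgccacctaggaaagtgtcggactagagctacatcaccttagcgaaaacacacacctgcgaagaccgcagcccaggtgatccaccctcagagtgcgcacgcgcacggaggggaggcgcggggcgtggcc
Rnf2: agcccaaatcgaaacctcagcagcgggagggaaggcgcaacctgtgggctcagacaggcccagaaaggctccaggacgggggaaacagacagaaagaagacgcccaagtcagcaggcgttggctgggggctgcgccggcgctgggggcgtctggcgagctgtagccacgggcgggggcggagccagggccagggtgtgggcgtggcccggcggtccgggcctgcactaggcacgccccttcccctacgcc
TGACAG was found in 1 of these 4 windows, that of Ezh1, and in 15.9% of the 32851 promoter windows of the table. TGATTTA, the core bound by HOXA9 with PBX, was searched in the same way. It was found in 0 of these 4 windows and in 2.61% of the 32851. The windows held 12 (Wdr5), 37 (Suz12), 14 (Ezh1) and 20 (Rnf2) CG dinucleotides, against a median of 6 over all windows. Of the 40 members 31 had an entry in that table.

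The 6 H3K4 methyltransferase genes gave 0 calls in the 36 tests against the empty vector with edgeR, 0 at an unadjusted p of 0.05 and 0 with DESeq2. Their lowest condition mean over all 5 libraries was in G-NHA9Midi for each of the 6. In replicates 1 to 3 alone it stayed there for Kmt2a, Kmt2b and Kmt2d. Kmt2c was then lowest in G-NHA9 (85.6 CPM against 93.1 CPM in G-NHA9Midi). Setd1a was lowest in the empty vector (6.18 against 6.21 CPM) and Setd1b in G-NHA9-8FA (6.59 against 7.16 CPM). The median log2 change of the family was -0.16 in G-NHA9, -0.47 in G-NHA9-8FA and -0.58 in G-NHA9Midi, against 0.01, 0.03 and 0.02 for all genes tested. It was -0.09 in G-NHA9-21FGAA, -0.21 in G-NHA9Midi-21FGAA and 0.03 in G-NHA9-DDNA, against -0.02, -0.02 and -0.01. Kmt2d differed by -0.99 ± 0.59 in G-NHA9Midi (log2, 95% interval -2.14 to 0.16, adjusted p = 0.186 in edgeR) and Setd1b by -1.14 ± 0.61 (interval -2.34 to 0.05, adjusted p = 0.138), with the libraries of both conditions overlapping. Among replicates 1 to 3 alone, a choice made after the values were seen, the difference was -0.35 for Kmt2d and -0.22 for Setd1b, with no call. With the replicate number as a block, Kmt2a, Kmt2b, Kmt2d and Setd1b were called in G-NHA9Midi, where 48.6% of all genes were called. With a sex covariate, Setd1b was called in G-NHA9-21FGAA, where 33.1% of all genes were called. Kmt2a, which encodes MLL1 and is itself a fusion gene in leukemia, had condition means of 38.6 to 62.1 CPM, Kmt2b of 25.9 to 38.0 CPM, Kmt2c of 96.5 to 129 CPM and Setd1a of 6.78 to 11.4 CPM.

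The shared subunits behaved otherwise, with small spread and several rises. Wdr5, the scaffold that binds the methyltransferase and many partners, was at 75.9, 65.7, 70.5, 59.6 and 69.1 CPM in the empty vector, 79.8, 89.0, 92.1, 80.1 and 97.3 CPM in G-NHA9 and 73.2, 81.7, 78.7, 78.0 and 90.7 CPM in G-NHA9-8FA. It was at 84.1, 93.1, 95.6, 82.1 and 96.3 CPM in G-NHA9Midi and 73.4, 87.0, 85.1, 96.0 and 97.0 CPM in G-NHA9-21FGAA. Every G-NHA9 and G-NHA9Midi library lay above the highest empty vector library, and 4 of 5 did so in G-NHA9-8FA and in G-NHA9-21FGAA. Values were 85.0, 85.5, 92.9, 95.6 and 84.5 CPM in G-NHA9Midi-21FGAA, where none overlapped the empty vector, and 86.7, 102, 97.7, 84.7 and 72.6 CPM in G-NHA9-DDNA, where only replicate 5 did. The rise in G-NHA9 was small (log2 fold change 0.36 ± 0.09 (SE), edgeR adjusted p = 0.00177), and the log2 changes in the other constructs were 0.24 ± 0.09, 0.40 ± 0.09, 0.36 ± 0.09, 0.38 ± 0.09 and 0.38 ± 0.09 in the order just given. In G-NHA9-8FA the adjusted p was 0.0419 in edgeR, and the call was lost when G-NHA9-8FA replicate 2, 3, 4 or 5 or empty vector replicate 2, 3, 4 or 5 was left out, with an adjusted p of up to 0.176. The other 5 calls held in each of the 10 fits that left out a library.

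Dpy30, a subunit that stimulates H3K4 methylation and is needed by stem cells, rose in 5 of the 6 comparisons. It was at 23.9, 21.6, 19.6, 16.6 and 16.8 CPM in the empty vector, 27.6, 28.7, 29.9, 25.5 and 24.0 CPM in G-NHA9 and 30.0, 27.2, 26.1, 32 and 30.2 CPM in G-NHA9-8FA. In G-NHA9Midi it was at 29.3, 32.3, 32.6, 33.8 and 31.7 CPM and in G-NHA9-21FGAA at 25.2, 25.4, 25.2, 25.8 and 26.9 CPM. None of these 20 libraries overlapped the empty vector. It was at 24.4, 24.6, 26.9, 20.6 and 24.3 CPM in G-NHA9Midi-21FGAA and 27.2, 32.4, 30.5, 20.7 and 21.4 CPM in G-NHA9-DDNA, where 1 and 2 libraries lay within the range of the empty vector. The log2 change was largest in G-NHA9Midi (log2 fold change 0.69 ± 0.11 (SE), edgeR adjusted p = 3.62e-06), followed by G-NHA9-8FA at 0.56 ± 0.11, G-NHA9 at 0.46 ± 0.11, G-NHA9-DDNA at 0.42 ± 0.11 and G-NHA9-21FGAA at 0.38 ± 0.11. In G-NHA9Midi-21FGAA it was 0.29 ± 0.11 with an adjusted p of 0.0579 in edgeR. The 5 calls held in each fit that left out a library.

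Rbbp5, which bridges the catalytic subunit and ASH2L, rose in G-NHA9Midi only among the 6 comparisons (log2 fold change 0.30 ± 0.06 (SE), edgeR adjusted p = 0.000233), with a mean of 61.7 ± 3.82 CPM (SD, n = 5) against 50.3 ± 2.63 CPM, and every G-NHA9Midi library was above every empty vector library. Ash2l had condition means of 58.6 to 66.1 CPM and no call.

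Men1, the gene of menin, had condition means of 39.6 to 47.5 CPM and was called in none of the 6 comparisons. In G-NHA9 its difference was 0.25 ± 0.11 (adjusted p = 0.0747, edgeR), and it was called there with the replicate number as a block (0.25, edgeR adjusted p = 0.00675) and with a sex covariate (0.25, edgeR adjusted p = 0.0260). Psip1, the gene of LEDGF, was at 48.0, 29.5, 37.4, 23.9 and 21.8 CPM in the empty vector, where replicates 4 and 5 were the lowest. It was at 58.7, 57.5, 43.0, 44.9 and 45.6 CPM in G-NHA9, 37.1, 40, 45.3, 28.7 and 41.6 CPM in G-NHA9-8FA and 49.2, 66.1, 50.9, 37.4 and 31.5 CPM in G-NHA9Midi. G-NHA9-21FGAA had the tightest and highest values, 67.4, 59.2, 65.3, 59.6 and 60.1 CPM, all above the empty vector. In G-NHA9Midi-21FGAA Psip1 was at 47.3, 56.2, 58.8, 30.8 and 54.6 CPM and in G-NHA9-DDNA at 54.3, 56.7, 56.6, 36.2 and 34.4 CPM, with overlap in both. It rose in G-NHA9-21FGAA (log2 fold change 0.95 ± 0.20 (SE), edgeR adjusted p = 0.000636), a call held in each of 10 fits. In G-NHA9-8FA the difference was 0.26 ± 0.20 (adjusted p = 0.362, edgeR). The smaller rises were 0.64 ± 0.20 in G-NHA9, lost when empty vector replicate 4 or 5 was left out, with an adjusted p of up to 0.0570, 0.55 ± 0.20 in G-NHA9Midi, lost when G-NHA9Midi replicate 2 or 3 or empty vector replicate 2, 4 or 5 was left out, with an adjusted p of up to 0.131, 0.62 ± 0.20 in G-NHA9Midi-21FGAA, lost when G-NHA9Midi-21FGAA replicate 2, 3 or 5 or empty vector replicate 2, 4 or 5 was left out, with an adjusted p of up to 0.0860, and 0.57 ± 0.20 in G-NHA9-DDNA, lost when G-NHA9-DDNA replicate 1, 2 or 3 or empty vector replicate 2, 4 or 5 was left out, with an adjusted p of up to 0.134.

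**Figure D4:**
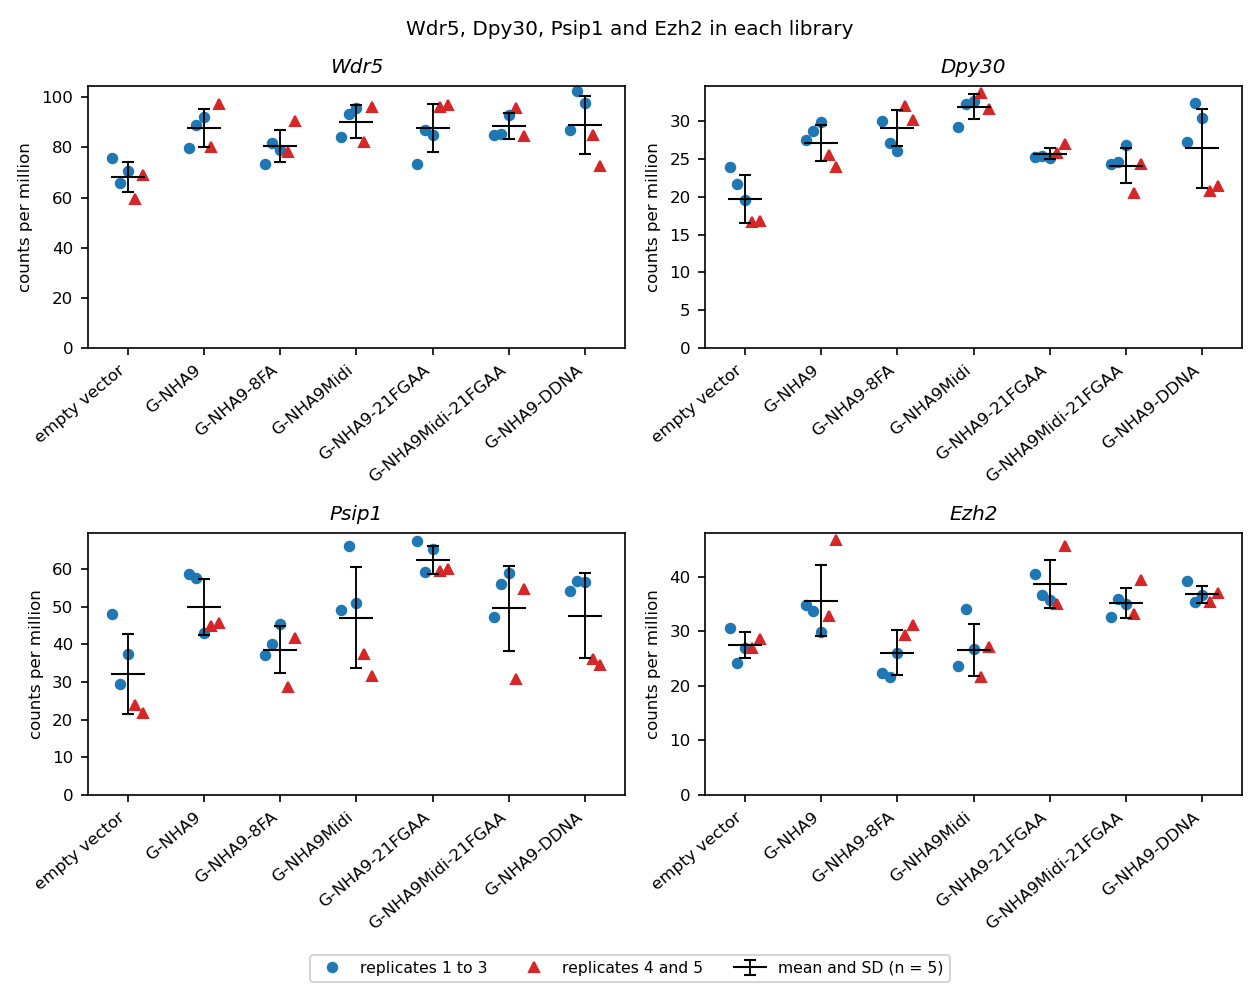
CPM of Wdr5, Dpy30, Psip1 and Ezh2 in each of the 35 libraries of the 7 conditions, with circles for replicates 1 to 3, triangles for replicates 4 and 5 and bars for the mean and SD of 5. The 5 G-NHA9Midi libraries of Dpy30 lie between 29.3 and 33.8, all above the empty vector, and the 5 G-NHA9-21FGAA libraries of Psip1 lie between 59.2 and 67.4.

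Among the acetyltransferases only Kat2a, the GCN5 enzyme of SAGA, was called against the empty vector. It rose in G-NHA9 from 13.5 ± 2.28 to 19.3 ± 5.10 CPM (SD, n = 5; log2 fold change 0.52 ± 0.17 (SE), edgeR adjusted p = 0.0196), a call lost when G-NHA9 replicate 4 or 5 or empty vector replicate 2 or 3 was left out, with an adjusted p of up to 0.133. Crebbp and Ep300, the paralogous coactivators CBP and P300, stood at -0.68 ± 0.37 and -0.76 ± 0.36 (log2) in G-NHA9Midi with adjusted p of 0.151 and 0.0919 in edgeR. With the replicate number as a block, both were called there. Per kilobase Ep300 exceeded Crebbp in each condition, for example 9.41 against 4.75 CPM per kilobase in the empty vector. Kat6a (MOZ) had condition means of 64.3 to 88.2 CPM and Kat7 (HBO1) of 85.4 to 91.8 CPM, in proportion the narrowest range of the family.

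In the DOT1L group Mllt3, whose product AF9 links DOT1L and the elongation complex to acetylated chromatin, was called against the empty vector in G-NHA9 alone. It was at 32, 28.2, 33.2, 26.1 and 28.1 CPM in the empty vector and 54.4, 43.6, 40, 46.0 and 40.6 CPM in G-NHA9, without overlap. In G-NHA9-8FA it was at 36.8, 33.3, 36.6, 23.6 and 27.7 CPM, in G-NHA9Midi at 42.3, 30.4, 29.5, 32.7 and 23.7 CPM and in G-NHA9-21FGAA at 40.4, 31.6, 35.7, 37.7 and 35.6 CPM. In G-NHA9Midi-21FGAA it was at 26.1, 32.4, 29.0, 22.7 and 33.8 CPM and in G-NHA9-DDNA at 26.8, 22.3, 25.2, 25.8 and 28.8 CPM, where 3 libraries were below every empty vector library. The rise in G-NHA9 was of moderate size (log2 fold change 0.61 ± 0.13 (SE), edgeR adjusted p = 0.000501). Against G-NHA9 itself the level was lower in G-NHA9-8FA (log2 fold change -0.51 ± 0.13 (SE), edgeR adjusted p = 0.00720), in G-NHA9Midi (log2 fold change -0.50 ± 0.13 (SE), edgeR adjusted p = 0.00559) and in G-NHA9-DDNA (log2 fold change -0.80 ± 0.13 (SE), edgeR adjusted p = 2.14e-05), all 3 called in each of 10 fits that left out a library. In G-NHA9-21FGAA the difference from G-NHA9 was -0.31 ± 0.13 with an adjusted p of 0.102 in edgeR.

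Aff4, the scaffold of the super elongation complex, moved the other way. It was at 194, 187, 196, 194 and 179 CPM in the empty vector and 174, 140, 136, 148 and 137 CPM in G-NHA9, without overlap. Values were 180, 164, 167, 139 and 172 CPM in G-NHA9-8FA, 207, 179, 174, 158 and 163 CPM in G-NHA9Midi and 222, 168, 180, 201 and 203 CPM in G-NHA9-21FGAA. They were 204, 178, 155, 183 and 220 CPM in G-NHA9Midi-21FGAA and 198, 155, 179, 206 and 195 CPM in G-NHA9-DDNA, with libraries on both sides of the empty vector range. The level fell in G-NHA9 (log2 fold change -0.37 ± 0.10 (SE), edgeR adjusted p = 0.00341) and was called in no other construct against the empty vector. It was higher than in G-NHA9 in G-NHA9-21FGAA (log2 fold change 0.40 ± 0.10 (SE), edgeR adjusted p = 0.00273) and G-NHA9-DDNA (log2 fold change 0.34 ± 0.10 (SE), edgeR adjusted p = 0.00927). Mllt1, the gene of ENL, rose from 18.0 ± 1.76 CPM (SD, n = 5) to 23.3 ± 4.03 CPM in G-NHA9-21FGAA (log2 fold change 0.37 ± 0.11 (SE), edgeR adjusted p = 0.0156, lost when G-NHA9-21FGAA replicate 5 was left out, with an adjusted p of up to 0.0663) and to 22.9 ± 1.80 CPM in G-NHA9-DDNA (log2 fold change 0.35 ± 0.11 (SE), edgeR adjusted p = 0.0339, lost when G-NHA9-DDNA replicate 2, 3 or 4 or empty vector replicate 1, 2, 3 or 4 was left out, with an adjusted p of up to 0.0854). Mllt10 (AF10) ran from 45.7 to 50.2 CPM, Aff1 from 108 to 140 CPM and Dot1l from 19.7 to 41.4 CPM without a call. Dot1l stood at -0.93 ± 0.44 (log2, interval -1.80 to -0.06, adjusted p = 0.0926 in edgeR) in G-NHA9Midi, and at -0.34 among replicates 1 to 3. With the replicate number as a block, Dot1l was called in G-NHA9-8FA and G-NHA9Midi, and with a sex covariate in G-NHA9-8FA.

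In PRC2 the paralogous methyltransferases moved apart. Ezh2, the more active enzyme and the one tied to dividing cells, was at 30.6, 24.2, 26.8, 26.9 and 28.6 CPM in the empty vector, 34.8, 33.7, 29.9, 32.8 and 46.8 CPM in G-NHA9 and 22.4, 21.6, 26.0, 29.3 and 31.2 CPM in G-NHA9-8FA. It was at 23.5, 34, 26.6, 21.6 and 27 CPM in G-NHA9Midi and 40.6, 36.6, 35.7, 35 and 45.6 CPM in G-NHA9-21FGAA. It was at 32.5, 36.0, 35, 33.2 and 39.3 CPM in G-NHA9Midi-21FGAA and 39.3, 35.4, 36.7, 35.4 and 37.0 CPM in G-NHA9-DDNA. All 15 libraries of these last 3 constructs were above the highest empty vector library, whereas the G-NHA9-8FA and G-NHA9Midi libraries spread around it. Ezh2 rose in G-NHA9 (log2 fold change 0.38 ± 0.12 (SE), edgeR adjusted p = 0.0125), G-NHA9-21FGAA (log2 fold change 0.50 ± 0.12 (SE), edgeR adjusted p = 0.00182), G-NHA9Midi-21FGAA (log2 fold change 0.36 ± 0.12 (SE), edgeR adjusted p = 0.0307) and G-NHA9-DDNA (log2 fold change 0.42 ± 0.12 (SE), edgeR adjusted p = 0.0122). The call in G-NHA9 was lost when G-NHA9 replicate 5 or empty vector replicate 2 was left out, with an adjusted p of up to 0.114, and that in G-NHA9Midi-21FGAA when G-NHA9Midi-21FGAA replicate 2, 3 or 5 or empty vector replicate 2, 3 or 4 was left out, with an adjusted p of up to 0.0860. The differences were -0.07 ± 0.12 in G-NHA9-8FA and -0.05 ± 0.12 in G-NHA9Midi, and against G-NHA9 both constructs were lower (-0.45 ± 0.12, adjusted p = 0.00775, and -0.42 ± 0.12, adjusted p = 0.00883, edgeR), calls that were lost without G-NHA9 replicate 5.

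Ezh1, the paralog found in resting cells, was at 57.4, 49.4, 55.5, 48.6 and 50.5 CPM in the empty vector, 49.0, 51.1, 50.8, 47.5 and 41.5 CPM in G-NHA9 and 58.0, 54.7, 49.6, 42.6 and 49.3 CPM in G-NHA9-8FA. It was at 62.7, 54.1, 54.9, 56.2 and 54.9 CPM in G-NHA9Midi and 44.8, 49.6, 47.4, 40.5 and 37.6 CPM in G-NHA9-21FGAA. It was at 48.8, 49.8, 45.9, 48.0 and 44.3 CPM in G-NHA9Midi-21FGAA and 44.2, 40, 42.7, 44.1 and 47.2 CPM in G-NHA9-DDNA. The 5 G-NHA9-DDNA libraries were below every empty vector library, and 4 of 5 were in G-NHA9-21FGAA. Ezh1 fell in G-NHA9-21FGAA (log2 fold change -0.25 ± 0.08 (SE), edgeR adjusted p = 0.0202) and in G-NHA9-DDNA (log2 fold change -0.26 ± 0.08 (SE), edgeR adjusted p = 0.0244), calls lost when G-NHA9-21FGAA replicate 4 or 5 or empty vector replicate 1 or 3 was left out, with an adjusted p of up to 0.141 and when G-NHA9-DDNA replicate 2 or 3 or empty vector replicate 1 or 3 was left out, with an adjusted p of up to 0.0785. Per kilobase of merged exon, Ezh2 was at 0.585 of the Ezh1 level in the empty vector, 0.572 in G-NHA9-8FA and 0.523 in G-NHA9Midi, against 0.827 in G-NHA9, 0.827 in G-NHA9Midi-21FGAA, 0.938 in G-NHA9-DDNA and 0.980 in G-NHA9-21FGAA. The merged exons span 7440 bases for Ezh1 and 6678 for Ezh2, but the longest transcripts only 4207 and 2787. In the empty vector, G-NHA9-8FA and G-NHA9Midi, Ezh1 was the more abundant with either length. In G-NHA9, G-NHA9-21FGAA, G-NHA9Midi-21FGAA and G-NHA9-DDNA the more abundant paralog depended on the length used. The order of the conditions did not. With merged exons the ratio ran from 0.539 to 0.631 over the empty vector libraries and from 0.656 to 1.26 over those of G-NHA9, which did not overlap.

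Suz12, a core subunit needed for PRC2 stability, was at 104, 84.3, 92.9, 88.9 and 96.2 CPM in the empty vector, 138, 130, 98.6, 124 and 167 CPM in G-NHA9 and 104, 104, 119, 93.1 and 129 CPM in G-NHA9-8FA. It was at 121, 152, 125, 89.9 and 97.0 CPM in G-NHA9Midi and 151, 112, 119, 131 and 151 CPM in G-NHA9-21FGAA. It was at 107, 110, 101, 102 and 133 CPM in G-NHA9Midi-21FGAA and 139, 123, 121, 117 and 114 CPM in G-NHA9-DDNA. The G-NHA9-21FGAA and G-NHA9-DDNA libraries did not overlap the empty vector, while 1 G-NHA9 library did. Suz12 rose in G-NHA9 (log2 fold change 0.50 ± 0.13 (SE), edgeR adjusted p = 0.00276) and G-NHA9-21FGAA (log2 fold change 0.51 ± 0.13 (SE), edgeR adjusted p = 0.00297), both held in each of 10 fits, in G-NHA9-DDNA (0.39 ± 0.13, lost when G-NHA9-DDNA replicate 1, 2 or 3 or empty vector replicate 2, 3 or 4 was left out, with an adjusted p of up to 0.0825) and in G-NHA9Midi (0.32 ± 0.13, lost when G-NHA9Midi replicate 1, 2 or 3 or empty vector replicate 2, 3, 4 or 5 was left out, with an adjusted p of up to 0.195). Eed, the subunit that reads H3K27 methylation, had condition means of 39.7 to 42.9 CPM and Jarid2, which recruits PRC2, of 48.2 to 68.6 CPM, with no call against the empty vector. A list of 13 proliferation genes (Mcm2 to Mcm7, Pcna, Mki67 and others) moved with these genes. All 13 were called higher in G-NHA9-21FGAA, G-NHA9Midi-21FGAA and G-NHA9-DDNA, 12 in G-NHA9, 6 in G-NHA9Midi and 2 in G-NHA9-8FA, and their summed level was 1114 to 2054 CPM in the empty vector and 2411 to 3003 CPM in G-NHA9-21FGAA. Its part in the PRC2 values was not tested.

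PRC1 held the largest called differences of the 40 genes. Cbx2, which reads H3K27 methylation and compacts chromatin in canonical PRC1, was at 4.44, 4.64, 2.93, 2.99 and 4.90 CPM in the empty vector, 6.36, 7.04, 6.4, 5.02 and 7.12 CPM in G-NHA9 and 8.13, 5.91, 5.50, 6.18 and 9.16 CPM in G-NHA9-8FA. In G-NHA9Midi it reached 10.7, 10.5, 9.90, 6.68 and 13.0 CPM. Each of these 15 construct libraries was above the highest empty vector library. In G-NHA9-21FGAA Cbx2 was at 4.10, 4.31, 4.48, 2.25 and 3.58 CPM, in G-NHA9Midi-21FGAA at 3.20, 3.73, 3.31, 2.92 and 2.84 CPM and in G-NHA9-DDNA at 4.40, 4.98, 2.87, 3.04 and 5.37 CPM. Of these 15 libraries 2, both G-NHA9-DDNA, were above the empty vector range. Cbx2 rose in G-NHA9 (log2 fold change 0.68 ± 0.20 (SE), edgeR adjusted p = 0.00859), G-NHA9-8FA (log2 fold change 0.81 ± 0.20 (SE), edgeR adjusted p = 0.00263) and G-NHA9Midi (log2 fold change 1.35 ± 0.20 (SE), edgeR adjusted p = 1.93e-06), and the 3 calls held in each of 10 fits and among replicates 1 to 3.

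Its paralog Cbx7, which has been linked to stem cell self-renewal, rose from 7.62 ± 1.38 CPM (SD, n = 5) to 10.3 ± 2.06 CPM in G-NHA9 (log2 fold change 0.44 ± 0.17 (SE), edgeR adjusted p = 0.0490) and 10.2 ± 1.04 CPM in G-NHA9Midi (log2 fold change 0.43 ± 0.17 (SE), edgeR adjusted p = 0.0469). Both calls were close to the threshold, the first lost when G-NHA9 replicate 2, 3 or 4 or empty vector replicate 1, 2, 3 or 5 was left out, with an adjusted p of up to 0.150 and the second when G-NHA9Midi replicate 2, 3 or 5 or empty vector replicate 1, 2 or 5 was left out, with an adjusted p of up to 0.119. Cbx8, which lies beside Cbx2 on chromosome 11, had condition means of 5.71 to 8.60 CPM and no call against the empty vector. Per kilobase the empty vector held 0.934 of Cbx2, 1.17 of Cbx7 and 1.80 of Cbx8 CPM per kilobase, whereas G-NHA9Midi held 2.38, 1.58 and 2.34. Cbx2 was thus the lowest of the 3 in the empty vector and level with Cbx8 in G-NHA9Midi. In G-NHA9Midi-21FGAA the values were 0.751, 0.845 and 1.56.

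Phc1, the polyhomeotic subunit that lets PRC1 complexes polymerise, was at 3.29, 3.83, 3.79, 7.30 and 5.78 CPM in the empty vector and 4.03, 3.30, 3.33, 7.56 and 7.72 CPM in G-NHA9. In G-NHA9-8FA it was at 1.68, 2.25, 2.07, 2.59 and 2.75 CPM and in G-NHA9Midi at 2.29, 2.10, 1.72, 2.49 and 3.56 CPM. No G-NHA9-8FA library reached the lowest empty vector library, and of G-NHA9Midi only replicate 5 did. It was at 5.21, 3.71, 4.32, 7.15 and 11.6 CPM in G-NHA9-21FGAA, 4.31, 5.73, 3.91, 10.0 and 11.6 CPM in G-NHA9Midi-21FGAA and 5.35, 3.07, 4.44, 10.3 and 7.95 CPM in G-NHA9-DDNA. Phc1 shared the split of the large enzymes, with replicates 4 and 5 above replicates 1 to 3 in all 7 conditions. It fell in G-NHA9-8FA (log2 fold change -1.08 ± 0.35 (SE), edgeR adjusted p = 0.0223) and in G-NHA9Midi (log2 fold change -0.97 ± 0.35 (SE), edgeR adjusted p = 0.0264), calls lost when G-NHA9-8FA replicate 1 or empty vector replicate 4 or 5 was left out, with an adjusted p of up to 0.0778 and when G-NHA9Midi replicate 2 or 3 or empty vector replicate 4 or 5 was left out, with an adjusted p of up to 0.0950. Among replicates 1 to 3 the changes were -0.87 and -0.82, both called.

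Pcgf1, which defines a variant PRC1 with BCOR, was 1 of the 2 members that rose in some constructs and fell in others. It was at 6.83, 6.72, 6.51, 6.4 and 5.94 CPM in the empty vector, 6.67, 7.44, 7.56, 5.76 and 5.77 CPM in G-NHA9, 9.01, 8.43, 6.81, 9.05 and 8.28 CPM in G-NHA9-8FA and 7.87, 7.26, 8.28, 8.66 and 7.64 CPM in G-NHA9Midi. Those of G-NHA9Midi were all above the empty vector. It was at 5.23, 6.21, 5.28, 4.59 and 4.34 CPM in G-NHA9-21FGAA, 4.69, 5.68, 5.83, 5.46 and 4.73 CPM in G-NHA9Midi-21FGAA and 5.43, 4.94, 5.10, 4.82 and 5.87 CPM in G-NHA9-DDNA, and in the last 2 every library was below the empty vector. Pcgf1 rose in G-NHA9-8FA (log2 fold change 0.36 ± 0.11 (SE), edgeR adjusted p = 0.0106, held in each of 10 fits) and G-NHA9Midi (0.29 ± 0.11, adjusted p = 0.0260 in edgeR, lost when G-NHA9Midi replicate 4 or empty vector replicate 4 or 5 was left out, with an adjusted p of up to 0.0819). It fell in G-NHA9-21FGAA (-0.34 ± 0.11, lost when G-NHA9-21FGAA replicate 4 or 5 or empty vector replicate 1 was left out, with an adjusted p of up to 0.0941), G-NHA9-DDNA (-0.31 ± 0.11, lost when G-NHA9-DDNA replicate 1, 2, 3 or 4 or empty vector replicate 1, 2, 3 or 4 was left out, with an adjusted p of up to 0.102) and G-NHA9Midi-21FGAA (-0.30 ± 0.11, adjusted p = 0.0498 in edgeR, lost when G-NHA9Midi-21FGAA replicate 1, 3, 4 or 5 or empty vector replicate 1, 2, 3, 4 or 5 was left out, with an adjusted p of up to 0.170). The range of all 35 libraries was 4.34 to 9.05 CPM.

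Rnf2, the catalytic E3 ligase RING1B, was the other. It was at 41.2, 44.3, 41.5, 38.9 and 37.1 CPM in the empty vector, 47.4, 35, 35.4, 35.7 and 32.6 CPM in G-NHA9 and 52.9, 42.6, 48.9, 47.4 and 43.1 CPM in G-NHA9-8FA. It was at 57.7, 52.2, 46.6, 47.4 and 41.1 CPM in G-NHA9Midi and 48.9, 34.5, 39.1, 32.6 and 39.6 CPM in G-NHA9-21FGAA. It was at 34.5, 33.1, 30.0, 28.9 and 35.9 CPM in G-NHA9Midi-21FGAA and 36.8, 32.7, 30.8, 36.2 and 37.4 CPM in G-NHA9-DDNA. G-NHA9Midi-21FGAA did not overlap the empty vector and G-NHA9Midi overlapped it by 1 library, while in G-NHA9 replicate 1 was above it and the other 4 libraries below. Rnf2 rose in G-NHA9Midi (log2 fold change 0.27 ± 0.11 (SE), edgeR adjusted p = 0.0387), lost when G-NHA9Midi replicate 1 or 2 or empty vector replicate 3, 4 or 5 was left out, with an adjusted p of up to 0.136, and fell in G-NHA9Midi-21FGAA (log2 fold change -0.32 ± 0.11 (SE), edgeR adjusted p = 0.0331), lost when G-NHA9Midi-21FGAA replicate 3 or 4 or empty vector replicate 1, 2, 3 or 4 was left out, with an adjusted p of up to 0.116. Ring1, the other ligase, had condition means of 14.9 to 20.1 CPM and Bmi1, the PCGF subunit of canonical PRC1 that sustains stem cells, of 21.8 to 33.1 CPM, with no call against the empty vector. Where Cbx2 rose and Phc1 fell together, in G-NHA9-8FA and G-NHA9Midi, the erythroid markers were also lower, 10 of 10 and 9 of 10 being called, and their part in these PRC1 values was not tested. Other marker lists moved there too: against the empty vector 5, 6 and 6 of 7 mast cell and basophil markers, 2, 4 and 4 of 5 eosinophil markers and 2, 5 and 5 of 5 megakaryocyte markers were lower in G-NHA9, G-NHA9-8FA and G-NHA9Midi, and 0 of any of these lists in the other 3 constructs. Their part was likewise not tested. In G-NHA9, where Cbx2 rose and Phc1 was not called, the summed level of the erythroid markers was 188 to 501 CPM.

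**Figure D5:**
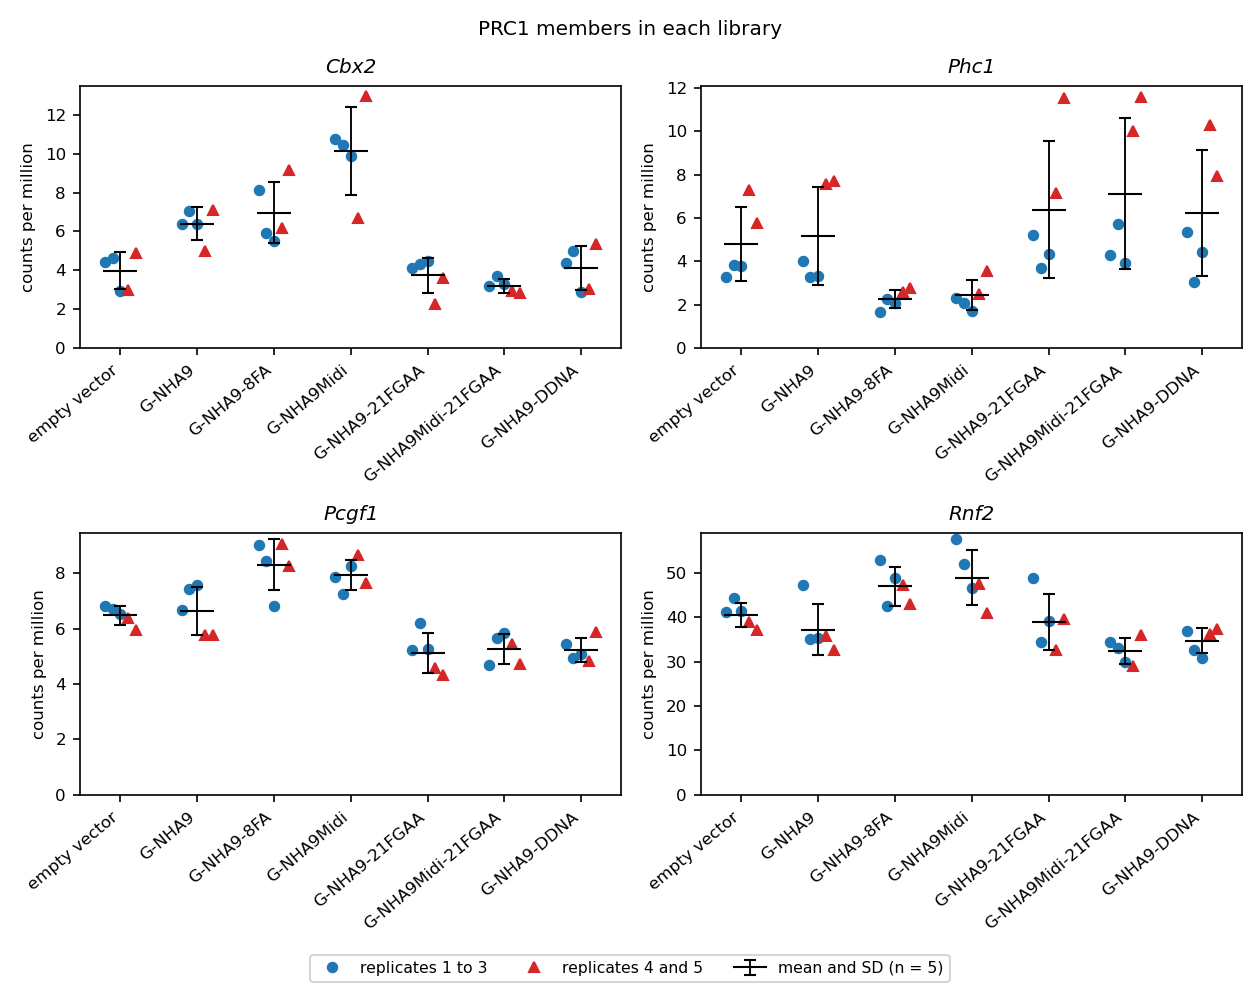
CPM of Cbx2, Phc1, Pcgf1 and Rnf2 in each of the 35 libraries of the 7 conditions, with circles for replicates 1 to 3, triangles for replicates 4 and 5 and bars for the mean and SD of 5. Cbx2 lies between 6.68 and 13.0 in G-NHA9Midi and between 2.84 and 3.73 in G-NHA9Midi-21FGAA, and Phc1 takes the opposite order between these conditions.

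Of the deacetylases, Hdac2 was at 53.5, 50.6, 49.4, 38.5 and 39.6 CPM in the empty vector, 64.4, 67.1, 58.2, 50.6 and 54.0 CPM in G-NHA9 and 59.2, 59.0, 66.6, 59.2 and 59.5 CPM in G-NHA9-8FA. It was at 71.1, 80.3, 72.0, 65.5 and 56.0 CPM in G-NHA9Midi and 61.1, 57.1, 59.5, 56.4 and 57.8 CPM in G-NHA9-21FGAA. The libraries of G-NHA9-8FA, G-NHA9Midi and G-NHA9-21FGAA were all above those of the empty vector. It was at 50.4, 55.2, 58.5, 43.3 and 53.5 CPM in G-NHA9Midi-21FGAA and 57.6, 66.4, 59.2, 45.7 and 47.4 CPM in G-NHA9-DDNA. Hdac2 rose in G-NHA9Midi (log2 fold change 0.57 ± 0.11 (SE), edgeR adjusted p = 5.24e-05) and G-NHA9-8FA (0.39 ± 0.11), held in each of 10 fits, in G-NHA9 (0.35 ± 0.11, lost when G-NHA9 replicate 1 or 2 or empty vector replicate 4 or 5 was left out, with an adjusted p of up to 0.0686) and in G-NHA9-21FGAA (0.33 ± 0.11, lost when empty vector replicate 4 or 5 was left out, with an adjusted p of up to 0.0555). Hdac1 rose in G-NHA9 (log2 fold change 0.34 ± 0.13 (SE), edgeR adjusted p = 0.0466), a call lost when G-NHA9 replicate 2, 4 or 5 or empty vector replicate 1, 2, 3 or 4 was left out, with an adjusted p of up to 0.271. The 2 H3K27 demethylases, Kdm6a and Kdm6b, gave 0 calls in 12 tests against the empty vector with edgeR, 0 at an unadjusted p of 0.05 and 0 with DESeq2. With the replicate number as a block, Kdm6b was called in G-NHA9Midi and G-NHA9Midi-21FGAA and Kdm6a in G-NHA9-21FGAA. With a sex covariate, Kdm6b was called in G-NHA9-21FGAA and G-NHA9Midi-21FGAA. Kdm6b had condition means of 14.9 to 30.8 CPM and stood at -1.02 ± 0.57 in G-NHA9Midi and -1.05 ± 0.57 in G-NHA9Midi-21FGAA (log2, intervals -2.14 to 0.11 and -2.17 to 0.08).

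In 3 of the comparisons with the empty vector, those of G-NHA9, G-NHA9Midi-21FGAA and G-NHA9-DDNA, libraries with the same replicate number deviated together (every pair's correlation over 0.1). With the number as a block, 13 members were called in G-NHA9 in place of 12, Men1 being gained, while 40.2% of all genes were called. In the same fit 12 members were called in G-NHA9Midi-21FGAA in place of 5 and 13 in G-NHA9-DDNA in place of 8, while 25.4% and 25.0% of all genes were called in either direction. The members gained were Dpy30, Kat2a, Ring1, Bmi1, Cbx7, Phc1 and Kdm6b in G-NHA9Midi-21FGAA and Kat2a, Jarid2, Ring1, Hdac1 and Hdac2 in G-NHA9-DDNA, and none was lost. The numbers also paired the libraries of G-NHA9-21FGAA and G-NHA9-DDNA with those of G-NHA9, where the block gave 5 members in place of 4 and 6 in place of 5 (all genes 22.9% and 28.1% in either direction). Bmi1 was gained in both (0.40, edgeR adjusted p = 0.0220, and 0.37, edgeR adjusted p = 0.0317).

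The constructs were next compared with G-NHA9 to ask what each change to the fusion did. In G-NHA9-8FA 2 members were higher and 3 lower (all genes 6.43% and 8.04%). Of the called members Phc1 fell most (log2 fold change -1.20 ± 0.35 (SE), edgeR adjusted p = 0.0201), a call lost when G-NHA9 replicate 4 or 5 or G-NHA9-8FA replicate 1 was left out, with an adjusted p of up to 0.0861, followed by Mllt3 and Ezh2 as given above. Rnf2 (0.34 ± 0.11) and Pcgf1 (0.32 ± 0.11) were higher, calls that held in 3 of 10 fits each, the first lost when G-NHA9 replicate 2, 3, 4 or 5 or G-NHA9-8FA replicate 1, 3 or 4 was left out, with an adjusted p of up to 0.126 and the second when G-NHA9 replicate 1, 4 or 5 or G-NHA9-8FA replicate 1, 2, 4 or 5 was left out, with an adjusted p of up to 0.126. Without scaling factors 0 were higher and 5 lower (all genes 3.64% and 14.6%), with the median of all genes at -0.12. The 5 became 2 without G-NHA9 replicate 4 or G-NHA9-8FA replicate 1, 1 without G-NHA9 replicate 5 and 3 without G-NHA9-8FA replicate 4.

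In G-NHA9Midi 4 were higher and 3 lower (all genes 8.50% and 11.2%). Cbx2 (log2 fold change 0.67 ± 0.20 (SE), edgeR adjusted p = 0.0145), Rnf2 (log2 fold change 0.40 ± 0.11 (SE), edgeR adjusted p = 0.00683) and Rbbp5 (log2 fold change 0.32 ± 0.06 (SE), edgeR adjusted p = 0.000293) rose most, and Phc1 (log2 fold change -1.09 ± 0.35 (SE), edgeR adjusted p = 0.0256), Mllt3 and Ezh2 fell. The call of Cbx2 was lost when G-NHA9 replicate 4 or G-NHA9Midi replicate 5 was left out, with an adjusted p of up to 0.0540, and that of Phc1 when G-NHA9 replicate 4 or 5 or G-NHA9Midi replicate 1, 2 or 3 was left out, with an adjusted p of up to 0.106. The 7 became 4 without G-NHA9 replicate 4 or 5.

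In G-NHA9-21FGAA 1 member was higher and 3 were lower than in G-NHA9 (all genes 8.91% and 8.34%). The fall took in 3 PRC1 genes, Cbx2 (log2 fold change -0.77 ± 0.20 (SE), edgeR adjusted p = 0.00535), Cbx7 (log2 fold change -0.73 ± 0.17 (SE), edgeR adjusted p = 0.00246) and Pcgf1 (log2 fold change -0.37 ± 0.11 (SE), edgeR adjusted p = 0.0118), the last lost when G-NHA9 replicate 2 or G-NHA9-21FGAA replicate 5 was left out, with an adjusted p of up to 0.0699, and Aff4 was the 1 that rose. In G-NHA9-DDNA 1 was higher and 4 were lower (all genes 10.7% and 11.4%). Mllt3 fell most, then Cbx2 (log2 fold change -0.63 ± 0.20 (SE), edgeR adjusted p = 0.0205) and Cbx7 (log2 fold change -0.59 ± 0.17 (SE), edgeR adjusted p = 0.0114), the call of Cbx2 lost when G-NHA9 replicate 2 or 5 or G-NHA9-DDNA replicate 3 or 4 was left out, with an adjusted p of up to 0.0848 and that of Cbx7 when G-NHA9 replicate 4 was left out, with an adjusted p of up to 0.0535. The 5 became 3 without G-NHA9 replicate 2 or G-NHA9-DDNA replicate 4. These 4 comparisons share the G-NHA9 libraries, and in them the share of members called in a direction, between 2.50% and 10%, was near or below that of all genes.

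The effect of the motif changes was measured in the short form too. Between G-NHA9Midi-21FGAA and G-NHA9Midi 13 of the 40 were called, 2 higher and 11 lower, where 21.0% of all genes were higher and 22.2% lower, so that of the members 5% were higher and 27.5% lower. Cbx2 fell by 1.67 on the log2 scale (log2 fold change -1.67 ± 0.20 (SE), edgeR adjusted p = 3.96e-08), the largest change of any member in any comparison, from 10.1 ± 2.26 to 3.20 ± 0.354 CPM (SD, n = 5) without overlap. Cbx7 (log2 fold change -0.90 ± 0.17 (SE), edgeR adjusted p = 7.5e-05) and Rnf2 (log2 fold change -0.59 ± 0.11 (SE), edgeR adjusted p = 2.52e-05) followed, and Pcgf1, Cbx8, Jarid2, Ring1, Dpy30, Hdac2, Rbbp5 and Ezh1 were lower, with changes from -0.59 to -0.26. The 2 that rose were Phc1 (log2 fold change 1.55 ± 0.35 (SE), edgeR adjusted p = 0.000547) and Ezh2 (log2 fold change 0.41 ± 0.12 (SE), edgeR adjusted p = 0.00491). All 13 calls held in each of the 10 fits that left out a library. Of the 8 PRC1 members 6 were lower, 1 was higher and Bmi1 was not called (0.34 ± 0.18, adjusted p = 0.118, edgeR). The members other than PRC1 that were lower belong to PRC2 (Jarid2, Ezh1), the shared methyltransferase subunits (Dpy30, Rbbp5) and the deacetylases (Hdac2). Between the same conditions the range of the summed mast cell and basophil markers was 378 to 693 CPM in G-NHA9Midi against 2210 to 4945 CPM in G-NHA9Midi-21FGAA, and that of the proliferation genes 1267 to 2477 CPM against 2507 to 2840 CPM. Their part in these values was not tested.

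Whether the motif changes had unequal effects in the full and the short form was tested as the difference of both effects. It was positive for 4 members (all genes 5.20%), and negative for 0 with edgeR (all genes 7.43%), for 1 at an unadjusted p of 0.05 and for 0 with DESeq2. For these 4 the change in the short form lay below that in the full form. The difference was 0.89 ± 0.28 for Cbx2, whose change was -0.77 ± 0.20 in the full form and -1.67 ± 0.20 in the short form (adjusted p of the difference = 0.0313, edgeR). It was 0.66 ± 0.15 for Rnf2 (0.06 ± 0.11 and -0.59 ± 0.11, edgeR adjusted p = 0.00265) and 0.52 ± 0.16 for Jarid2 (0.06 ± 0.12 and -0.46 ± 0.12, edgeR adjusted p = 0.0310). Rbbp5 had the smallest, 0.31 ± 0.09 (0.02 ± 0.06 and -0.29 ± 0.06, edgeR adjusted p = 0.0172). Those of Rnf2 and Rbbp5 held in each of 20 fits that left out a library, and those of Cbx2 and Jarid2 in 12 and 15 of 20. That of Cbx2 was lost when G-NHA9 replicate 4 or G-NHA9-21FGAA replicate 1, 2 or 3 or G-NHA9Midi replicate 2 or 5 or G-NHA9Midi-21FGAA replicate 4 or 5 was left out, with an adjusted p of up to 0.0679, and that of Jarid2 when G-NHA9 replicate 3 or G-NHA9-21FGAA replicate 1 or G-NHA9Midi replicate 2 or 5 or G-NHA9Midi-21FGAA replicate 3 was left out, with an adjusted p of up to 0.0763. The 4 became 2 without G-NHA9-21FGAA replicate 1 or G-NHA9Midi replicate 2. For Phc1, which rose by 1.55 ± 0.35 in the short form and differed by 0.30 ± 0.34 in the full form, the difference did not pass the test (adjusted p = 0.0885, edgeR).

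Genes of the same complexes outside the 40 were counted from lists of 78 further chromatin genes, with Nup98 itself among them. Of these 73 were tested. Against the empty vector 16 were higher and 7 lower in G-NHA9 (all genes 16.9% and 15.2%) and 12 and 1 in G-NHA9-8FA (13.4% and 13.2%). In G-NHA9Midi 23 were higher and 7 lower (20.5% and 20.0%) and in G-NHA9-21FGAA 19 and 5 (14.7% and 12.5%). The counts were 9 and 3 in G-NHA9Midi-21FGAA (9.59% and 7.32%) and 16 and 1 in G-NHA9-DDNA (9.85% and 7.35%). The counts by list that follow, for G-NHA9 and G-NHA9Midi, are to be read against the same shares. Among the PRC1 and BAP1 genes 6 of 17 rose in G-NHA9 and 6 rose and 2 fell in G-NHA9Midi. Cbx6, a further CBX paralog, rose by 1.31 ± 0.16 in G-NHA9 and 0.78 ± 0.16 in G-NHA9Midi (log2 change ± SE), and Pcgf6 by 0.64 ± 0.10 in G-NHA9. Phc2 (-0.36 ± 0.13) and Pcgf3 (-0.25 ± 0.09) fell in G-NHA9Midi.

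Of the 6 further PRC2 genes 3 rose and 1 fell in G-NHA9 and 3 rose in G-NHA9Midi. Phf19, a PRC2 recruiter, rose by 0.76 ± 0.15 and 0.48 ± 0.15 and the histone chaperone Rbbp7 by 0.64 ± 0.09 and 0.56 ± 0.09 in G-NHA9 and G-NHA9Midi, while Phf1, a paralog of Phf19, fell in G-NHA9 (-0.54 ± 0.15). Of the 10 further genes of DOT1L and elongation 2 rose and 2 fell in G-NHA9 and 3 rose and 1 fell in G-NHA9Midi. Aff3, a paralog of Aff4, had the largest called change of these lists in both constructs, 2.40 ± 0.28 in G-NHA9 and 1.91 ± 0.27 in G-NHA9Midi, from an empty vector mean of 3.43 CPM to 18.0 and 12.8 CPM. Ctr9 (0.32 ± 0.12) rose and Ell2 (-0.48 ± 0.11) and Ell (-0.33 ± 0.10) fell in G-NHA9, and Paf1 (0.46 ± 0.15) rose and Ell (-0.31 ± 0.10) fell in G-NHA9Midi.

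Of 15 further genes of acetyltransferases or their complexes 2 rose and 3 fell in G-NHA9. Among them were Tada2a (0.68 ± 0.11) and Jade1 (0.46 ± 0.12) upward and Ing4 (-0.44 ± 0.15) and Tada3 (-0.28 ± 0.07) downward. In G-NHA9Midi 4 rose and 2 fell, led by Jade1 (0.46 ± 0.12), Jade2 (0.45 ± 0.14), Tada3 (-0.33 ± 0.07) and Brpf1 (-0.22 ± 0.08). Of 7 further genes of deacetylases or their complexes Hdac3 rose (0.29 ± 0.07) and Sin3b fell (-0.26 ± 0.07) in G-NHA9. In G-NHA9Midi Hdac8 (0.34 ± 0.11) and Hdac3 (0.21 ± 0.07) rose and Rcor1 (-0.49 ± 0.14) and Sin3b (-0.19 ± 0.07) fell. Of 7 further MLL and COMPASS genes Wdr82 alone was called in these 2 constructs, higher in G-NHA9Midi (0.22 ± 0.06). The list of NUP98 fusion partners also held Nup98 itself, which is not a partner. Of its genes 11 were tested, and 2 rose in G-NHA9, Nup98 being 1 of them, and 4 in G-NHA9Midi. Hmgb3 rose in both (1.22 ± 0.25 and 0.93 ± 0.25), Nup98 in G-NHA9 (0.40 ± 0.12), where its counts may take in the construct, and Ddx10 in G-NHA9Midi (0.68 ± 0.18).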

How the data were processed

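RNA was sequenced from 35 libraries, 5 for each of 7 conditions, prepared with a stranded total RNA kit after rRNA removal. Values are raw counts per gene as deposited by the authors, whose processing notes name STAR 2.7.0d, HTSeq 0.11.2, DESeq2 and the mouse build mm10. The annotation and strand setting of the counting were not given in the sources used here. Every column of the table matched a sample, and 0 columns were left over. Library totals ran from 31559914 to 75810659 counts. No pair of libraries within a condition agreed within sampling noise (70 pairs, lowest chi-square over its degrees of freedom 22.5). The labels do not say that libraries came from separate mice, so p-values measure the spread between these samples.

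Counts were fitted with edgeR 4.0.16 in R 4.3.3 (TMM scaling, filterByExpr, quasi-likelihood F test, 1 mean per condition over all 35 libraries), with Benjamini-Hochberg adjustment over the 17166 genes kept, which held 99.96% of counts, and a threshold of 0.05. Levels are CPM with TMM-scaled totals, and CPM per kilobase uses the merged exons of GENCODE M21. The script was tested on simulated counts that held no split between replicate numbers. That test therefore does not cover the split seen here. Promoter sequence came from RefSeq (GRCm38.p6). Alternatives were DESeq2 1.42.0, RLE size factors, no scaling, other filters, only the conditions compared, a sex covariate, the replicate number as a block, each library left out, and replicates 1 to 3 only, the last chosen after seeing the data.

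Replicate numbers were taken to pair libraries where all 5 same-numbered pairs of both conditions had a correlation of deviations over 0.1, which held for G-NHA9, G-NHA9Midi-21FGAA and G-NHA9-DDNA against the empty vector and for G-NHA9-21FGAA and G-NHA9-DDNA against G-NHA9. Over all conditions the mean correlation was 0.23 for the same number and -0.06 for other numbers.

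The members, gene lists and tests were chosen with earlier results of these data known. All 40 members were accounted for by family. Library values were given for 13 of them by the rule and for Kmt2d, Setd1b, Dot1l and Kdm6b, chosen after their values were seen, and other members by the range of condition means. In comparisons between constructs the 3 largest called changes in each direction were named, and from the further chromatin lists the 2 largest in each direction in G-NHA9 and G-NHA9Midi, 1 of which is not reported here. CBX genes, EZH genes and CBP with P300 were compared as paralogs. The authors' n was given as 5 in one place and 3 in another, and all 5 libraries of the labels were used.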

Additional observations from a re-analysis of the deposited data

Results flagged for a closer look

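Among 119 groups of 5 libraries examined for 17 members, 9 held a library that stood apart by Dixon's test. By chance about 1 in 20 groups would. The 17 include Kmt2d, Setd1b, Dot1l and Kdm6b, chosen for their spread after their values were seen. The count can therefore not be set against that rate. In G-NHA9Midi replicate 5 was the high library for Kmt2d (161 CPM), Setd1b (20 CPM), Kdm6b (34.1 CPM) and Dot1l (35 CPM), and replicate 1 was the high one for Ezh1 (62.7 CPM). Setd1b was also high in G-NHA9-21FGAA replicate 5 (28.2 CPM). In G-NHA9, Ezh2 was high in replicate 5 (46.8 CPM) and Rnf2 in replicate 1 (47.4 CPM). Hdac2 was high in G-NHA9-8FA replicate 3 (66.6 CPM).

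The effect of the motif changes differed between the full and the short form, by an interaction test in edgeR, for Cbx2 (0.89 on the log2 scale), Rnf2 (0.66), Jarid2 (0.52) and Rbbp5 (0.31).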

How the results depend on the processing

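Of the 89 calls of a member in a comparison, none reversed direction. DESeq2 kept 87, RLE size factors 82, no scaling 77, a minimum mean of 1 CPM 87, no filter 63, a fit of only the conditions compared 66, the replicate block 89, the sex covariate 87, and replicates 1 to 3 alone, an alternative chosen after seeing the data, 62. Leaving out 1 library kept the call in 743 of 930 fits. The causes of these losses were not tested.

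Counts of members called moved by over 1.5 times under these settings, and the share of all genes tested that each setting called is given in the same order. Without scaling 16 were called in G-NHA9-21FGAA (9 with it) and 8 in G-NHA9Midi-21FGAA (5) against the empty vector (all genes 32.2% and 22.9%). Without a filter, which enlarged the number of genes tested, 7 were called in G-NHA9Midi (11), 3 in G-NHA9Midi-21FGAA (5) and 3 in G-NHA9-DDNA (8) against the empty vector, 3 between G-NHA9-8FA and G-NHA9 (5), and 1 for the difference of the motif effects (4), of all genes 16%, 5.92%, 5.51%, 5.26% and 4.61%. With a sex covariate the counts were 12 in G-NHA9Midi-21FGAA against the empty vector (5) and 7 in G-NHA9-21FGAA against G-NHA9 (4), of all genes 23.2% and 21.4%. With only the conditions compared they were 3 in G-NHA9Midi-21FGAA (5) and 5 in G-NHA9-DDNA (8) against the empty vector, and 2 in G-NHA9-8FA (5), 4 in G-NHA9Midi (7) and 3 in G-NHA9-DDNA (5) against G-NHA9, of all genes 16.3%, 17.8%, 10.1%, 14.9% and 19.6%. With replicates 1 to 3 alone they were 5 in G-NHA9-21FGAA, 2 in G-NHA9Midi-21FGAA and 13 in G-NHA9-DDNA against the empty vector, and 2 in G-NHA9-8FA, 4 in G-NHA9Midi, 2 in G-NHA9-21FGAA and 9 in G-NHA9-DDNA against G-NHA9, of all genes 15.2%, 8.04%, 22.4%, 11.0%, 15.6%, 15.9% and 22.5%.

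With the replicate block the counts were 12 in G-NHA9Midi-21FGAA and 13 in G-NHA9-DDNA against the empty vector, where the numbers pair the libraries (all genes 25.4% and 25.0%), and no call of a member was lost in any comparison. In the comparisons that follow only some same-numbered pairs had a correlation of deviations over 0.1, the limit set for pairing. Against the empty vector 4 pairs did in G-NHA9-8FA and 2 in G-NHA9Midi, and against G-NHA9 2 and 3 did. Between G-NHA9Midi-21FGAA and G-NHA9Midi, a part of the motif difference, 4 did. The block gave 12 in G-NHA9-8FA and 25 in G-NHA9Midi against the empty vector (all genes 34.5% and 48.6%). These were 7 higher and 5 lower in G-NHA9-8FA and 14 higher and 11 lower in G-NHA9Midi. It gave 10 in G-NHA9-8FA and 14 in G-NHA9Midi against G-NHA9 (all genes 23.0% and 29.1%). For the difference of the motif effects it gave 7 (all genes 20.0%). The 14 members gained in G-NHA9Midi included Kmt2a, Kmt2b, Kmt2d, Setd1b, Crebbp, Ep300, Dot1l and Kdm6b.

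Leaving out 1 library gave from 6 to 16 calls in G-NHA9Midi (16 without its replicate 5), 1 to 5 in G-NHA9Midi-21FGAA and 3 to 8 in G-NHA9-DDNA against the empty vector, 1 to 5 in G-NHA9-8FA, 4 to 9 in G-NHA9Midi and 3 to 7 in G-NHA9-DDNA against G-NHA9, and 2 to 5 for the difference of the motif effects. With all libraries the shares of all genes were 40.5%, 16.9%, 17.2%, 14.5%, 19.7%, 22.1% and 12.6% in the same order. Those of the left-out fits are not given, so moves of the members and of all genes cannot be told apart here. The lowest value of every member was above 3 counts in every library.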
